A study of Mus musculus with 19 samples.

Results

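Fibroblasts of 4 mouse melanocytic tumours are described here. A barcode was taken as a fibroblast when it held at least 500 UMIs (counted mRNA molecules) and 200 genes, had under 20% of its UMIs on mitochondrial genes, showed at least 5 of the 10 genes Col1a1, Col1a2, Col3a1, Dcn, Lum, Pdgfra, Dpt, Col6a3, Fap and Pi16, and showed none of Ptprc, C1qa, Pecam1, Cd3e and Myh11. This rule took 993 of 60334 filtered barcodes. The rule works on measured values, so the levels of its genes are given as a description. The tumours grew from Melan-a, a melanocyte line of the mouse that divides without limit in culture. The injected Melan-a cells were BAP1 knockout (KO, made by CRISPR) or BAP1 wild type (WT), they were placed in the eye (ocular) or under the skin (subcutaneous, here skin) of syngeneic mice, and no group received a drug. BAP1 is a nuclear deubiquitinase and tumour suppressor, and the study varied its genotype and the site of growth. The genotype belongs to the injected cells, while fibroblasts come from the host mouse. All 4 tumours stand under 1 multiplexed sample, with 1 matrix of each kind and no replicate, so no difference below could be tested against biological error. The labels name several knockout clones but not the one injected, nor the strain, age and number of the mice. Genotype and site rest on the matrix names alone, so "KO ocular", "KO skin", "WT ocular" and "WT skin" below mean the fibroblasts of the matrix labelled that way.

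Fibroblasts are the collagen-producing cells of connective tissue. They lay down fibrillar collagens and the proteoglycans that bind them, remodel matrix through metalloproteinases, and signal to immune, vascular and tumour cells through chemokines, complement and growth factors. In many tissues a resting population marked by Pi16 and Dpt is held to be a reservoir from which specialised fibroblasts arise, whereas Fap, Postn, Lrrc15 and Acta2 mark activated fibroblasts of wounds and tumours. Fibroblasts also keep a record of body position in their transcription factors: those of the trunk express Hox genes, while those of the front of the eye descend in large part from the neural crest and express Foxc1.

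The 4 matrices held 88752748 to 115566351 UMIs each. The matrix labelled WT ocular stood apart: it had 32285 gene rows and 16-base barcodes, while each of the other matrices had 19059 rows and 24-base barcodes. Its assay and its group cannot be told apart. Its levels are therefore set beside the others over the 19059 shared genes, as counts scaled to a total of 1000000 (CPM), and no fold change is given for it. Complete 24-base barcodes were never shared, whereas the first 16 bases of 16, 27 and 49 fibroblast barcodes labelled KO ocular, KO skin and WT skin occurred in another matrix as well. Bap1 did not tell the labels apart: melanocytic barcodes held 33.3 CPM in KO ocular, 47.4 CPM in KO skin, 7.37 CPM in WT ocular and 42.1 CPM in WT skin. Where the Bap1 probes or tags lie relative to the edit is not stated, and one outside the edited part would check nothing, so no direction below is backed by the level of the targeted gene.

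Barcodes that met the rule were scarce in every tumour, and their share was lower under each KO label than under the WT label of the same site. In the eye pair, WT ocular also differs in gene list and barcode length, so assay and genotype label cannot be told apart. The matrix labelled KO ocular gave 61 fibroblasts among 9398 filtered barcodes, a share of 0.649% (exact 95% binomial interval 0.497% to 0.833%). KO skin gave 88 of 13111, a share of 0.671% (0.539% to 0.826%). WT ocular gave 673 of 26143, a share of 2.57% (2.39% to 2.77%), and WT skin gave 171 of 11682, a share of 1.46% (1.25% to 1.70%). The KO skin interval lay below the WT skin interval, but all intervals and floors here cover counting error only, and 1 matrix stands behind each share. With barcodes holding more than 2 of 6 melanocytic markers left out, the shares were 0.160% in KO ocular (0.0894% to 0.263%), 0.0686% in KO skin (0.0314% to 0.130%), 0.880% in WT ocular (0.770% to 1.00%) and 0.154% in WT skin (0.0913% to 0.243%), so KO ocular was then not below WT skin and the intervals of both skin matrices overlapped. The exclusion genes removed 55 of 116 candidate barcodes in KO ocular, 60 of 148 in KO skin, 177 of 850 in WT ocular and 265 of 436 in WT skin, most often for C1qa, a macrophage gene. At the threshold, 13, 29, 197 and 43 fibroblasts of the 4 matrices in that order showed exactly 5 rule genes, and 26, 52, 286 and 106 barcodes with exactly 4 stayed outside. Median depth was 6790 UMIs per fibroblast in KO ocular, 5127 in KO skin, 3851 in WT ocular and 5236 in WT skin.

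The fibroblast label was checked against rule genes and melanocytic markers, with mixed results. The 10 rule genes made up a median of 2.84% of a fibroblast's UMIs in KO ocular, 6.29% in KO skin, 1.19% in WT ocular and 5.21% in WT skin. Below 1% lay 15, 13, 291 and 22 barcodes of those matrices, called doubtful here. In these, 6 melanocytic markers (Pmel, Mlana, Tyr, Tyrp1, Dct and Sox10) took a median of 2.66% of UMIs in KO ocular, 3.17% in KO skin, 0.386% in WT ocular and 3.08% in WT skin. Barcodes classed as melanocytic gave 3.84%, 3.19%, 0.856% and 4.16%. Fibroblasts at or above 1% gave only 0.343%, 0.423%, 0.154% and 0.478%. The doubtful barcodes were also deep, with a median of 20829 UMIs in KO ocular, 9351 in KO skin, 4219 in WT ocular and 8585 in WT skin, and held 40.3%, 34.4%, 50.3% and 17.9% of all fibroblast UMIs. Not all of them were rich in melanocytic markers. The deepest ones in KO ocular, with 102347 and 99123 UMIs, had melanocytic shares of 0.0449% and 0.0545%. Their rule-gene shares of 0.982% and 0.954% lay just under the cut, so leaving out the doubtful barcodes drops these as well. Melanocytic UMIs were not confined to them: 46 of 61 fibroblasts in KO ocular, 79 of 88 in KO skin, 443 of 673 in WT ocular and 153 of 171 in WT skin held more than 2 of the 6 markers. Of a longer list of 10 such markers, at least 3 were seen in 82.0%, 93.2%, 78.0% and 95.3% of fibroblasts, against 85.5%, 96.8%, 83.5% and 93.2% of the other barcodes. Their summed level was 12648, 17019, 6190.1 and 14595 CPM in fibroblasts, against 41547, 35945, 10952 and 47494 CPM in the other barcodes. The part of melanocytic RNA in the results below was not tested.

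**Figure D1:**
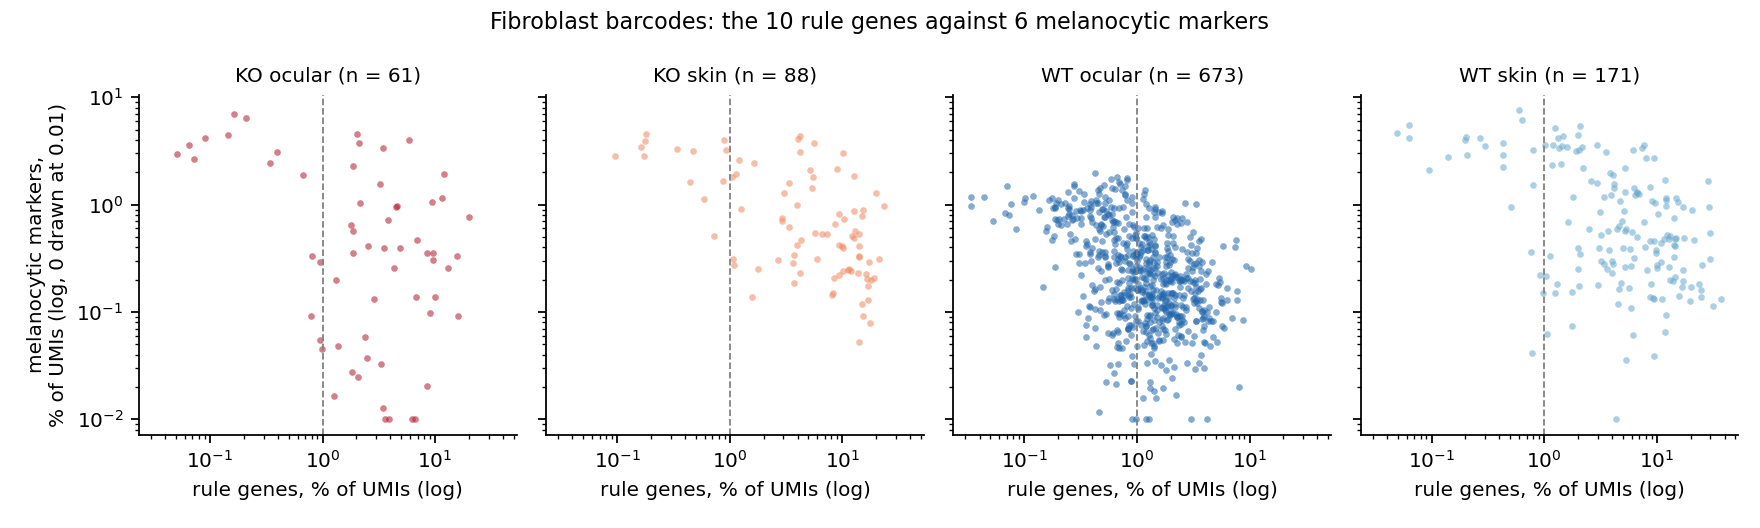
Each point is 1 fibroblast barcode: the x axis gives the share of its UMIs on the 10 rule genes and the y axis the share on 6 melanocytic markers, both in percent on log axes, in panels for KO ocular, KO skin, WT ocular and WT skin. Left of the dashed line at 1% lie the 15, 13, 291 and 22 barcodes called doubtful, whose median melanocytic share was 0.386% to 3.17% by matrix, against medians of 0.154% to 0.478% in the remaining fibroblasts.

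Immune markers were lower in fibroblasts than in the other barcodes, whereas vessel markers were not always so. The rule drops barcodes with Ptprc, C1qa or Cd3e, so lower immune markers were partly set by it and do not check the label. The summed level of 10 macrophage markers was 89.3 CPM in KO ocular fibroblasts, 123 CPM in KO skin, 179 CPM in WT ocular and 327 CPM in WT skin, against 2376, 1958, 894 and 3110 CPM in all other barcodes of those matrices. Of 10 lymphocyte markers, all were at 0 in KO ocular and 6 to 8 were at 0 in the other 3 matrices. The 10 neutrophil markers summed to 267, 164, 1045 and 671 CPM in fibroblasts of KO ocular, KO skin, WT ocular and WT skin. In the other barcodes they summed to 5175, 723, 1915 and 1939 CPM, so WT ocular differed least in share of barcodes with at least 3 of them (9.96% against 10.5%). The 10 endothelial markers summed to 129, 180.1, 218 and 284 CPM in fibroblasts of KO ocular, KO skin, WT ocular and WT skin, against 151, 126, 255 and 127 CPM in the other barcodes. The 10 pericyte and smooth muscle markers summed to 274, 429, 275 and 467 CPM, against 347, 298, 160.4 and 258 CPM. Both sums were thus higher in fibroblasts than in the other barcodes under each skin label. Fibroblasts labelled WT ocular held UMIs of eye and blood genes: the corneal keratin Krt12 stood at 293 CPM and 7 erythroid markers at 14312 CPM in sum. Its 9 photoreceptor and retina markers summed to 745 CPM in fibroblasts and 976 CPM in the other barcodes. The erythroid sum was 1813 CPM in KO ocular, 90.0 CPM in KO skin and 258 CPM in WT skin.

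Collagen transcripts were abundant in the fibroblasts of each matrix. Col1a1, a chain of collagen I, stood at 12779.9 CPM in KO ocular, 28189.9 CPM in KO skin, 4123 CPM in WT ocular and 34098 CPM in WT skin. Col3a1, the chain of collagen III, stood at 9819 CPM in KO ocular, 17012 CPM in KO skin, 6556 CPM in WT ocular and 12866 CPM in WT skin. Dcn, which encodes the collagen-binding proteoglycan decorin, stood at 3614 CPM in KO ocular, 1058 CPM in KO skin, 2168 CPM in WT ocular and 2119 CPM in WT skin, and Pdgfra, the PDGF receptor of mesenchymal cells, at 421 CPM in KO ocular, 262 CPM in KO skin, 206 CPM in WT ocular and 342 CPM in WT skin. Collagen I was thus lower under both ocular labels than under both skin labels, and Dcn showed no such order. In the remaining barcodes Col1a1 stood at 81.7, 137, 124 and 651 CPM in the same order.

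Across all genes, rule genes included, 412 of 7848 genes were at least 2-fold higher in fibroblasts than in all other barcodes in each of the 4 matrices, or 5.25%. The ranking by the smallest of the 4 log2 folds, which is a description since the same cells were chosen by correlated genes, put Mmp3 first among genes outside the rule. Mmp3, the protease stromelysin-1, exceeded the other barcodes by 6.16, 6.54, 5.15 and 5.80 on the log2 scale in KO ocular, KO skin, WT ocular and WT skin. Mfap5, a microfibril protein, followed at 7.45, 7.35, 4.99 and 5.59, then Col5a2 of collagen V, Mgp (matrix Gla protein, an inhibitor of calcification), Il1rl1 (the IL-33 receptor), Col12a1, Srpx2, the neutrophil-attracting chemokine Cxcl5, and the matrix glycoprotein Tnc. Over pericyte and smooth muscle barcodes, 164 of 6337 genes (2.59%) were past 2-fold in each matrix, led outside the rule by Mfap5, Itgbl1, Cxcl14 and Cemip. Over endothelial barcodes, 208 of 6772 (3.07%) were, led by Cxcl5, Saa3, Il1rl1 and Cemip.

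Activation genes were read after each barcode had been thinned to 1000 UMIs, since a deeper barcode shows more genes. Fap, a serine protease of activated stroma, or Postn, the matricellular protein periostin, was seen in 22 of 60 fibroblasts labelled KO ocular (36.7%, exact 95% interval 24.6% to 50.1%) and in 46 of 80 labelled KO skin (57.5%, 45.9% to 68.5%). The shares were 177 of 668 in WT ocular (26.5%, 23.2% to 30.0%) and 116 of 157 in WT skin (73.9%, 66.3% to 80.6%). Pi16 or Dpt was seen in 9 of 60 (15%, 7.10% to 26.6%), 22 of 80 (27.5%, 18.1% to 38.6%), 60 of 668 (8.98%, 6.92% to 11.4%) and 41 of 157 (26.1%, 19.4% to 33.7%) in the same order. Both shares were thus lower in each ocular matrix than in the skin matrix of the same genotype label, but the KO ocular and KO skin intervals overlapped, as did those of KO skin and WT skin. In the WT pair, assay and site cannot be told apart. Fap, Pi16 and Dpt are also rule genes, so their shares are a description. Without thinning, Fap or Postn was seen in 72.1%, 77.3%, 59.7% and 88.3%, and Pi16 or Dpt in 32.8%, 46.6%, 15.6% and 45.6%. Macrophage and melanocytic barcodes, which should lack these genes, showed Fap or Postn in at most 4.30% and 6.30% after thinning, both in WT skin, and Pi16 or Dpt in at most 1.82% and 0.573%.

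Nearly all of the activated share came from Postn, and its 2 genes pointed opposite ways in skin. After thinning, Postn was seen in 35.0% of fibroblasts in KO ocular, 52.5% in KO skin, 22.8% in WT ocular and 73.9% in WT skin, whereas Fap was seen in 5.00%, 8.75%, 4.64% and 2.55%. In CPM, Postn stood at 626 CPM in KO ocular, 1019 CPM in KO skin, 391 CPM in WT ocular and 4649 CPM in WT skin. Fap stood at 48.8 CPM in KO ocular, 43.1 CPM in KO skin, 47.8 CPM in WT ocular and 19.7 CPM in WT skin, so it was lowest where Postn was highest. Both pairs of genes met in the same barcodes: Fap or Postn together with Pi16 or Dpt occurred in 5.00%, 21.2%, 3.59% and 19.1% of fibroblasts, beside 5.50%, 15.8%, 2.38% and 19.3% from the product of the separate shares. Neither pair was seen in 53.3%, 36.2%, 68.1% and 19.1%. With the doubtful barcodes left out, Fap or Postn was seen in 48.9%, 67.2%, 41.3% and 82.2%.

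**Figure D2:**
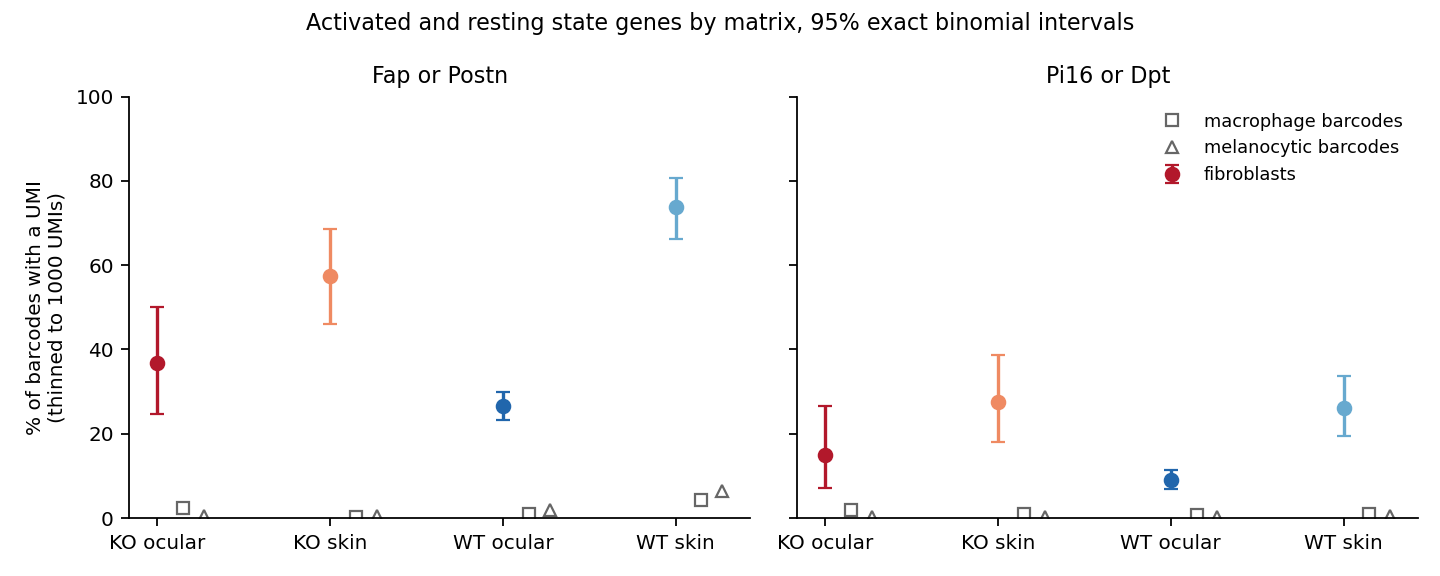
The y axis gives the percent of barcodes with at least 1 UMI of Fap or Postn (left panel) or of Pi16 or Dpt (right panel) after thinning to 1000 UMIs, for KO ocular, KO skin, WT ocular and WT skin. Filled points are fibroblasts with exact 95% binomial intervals, open squares and triangles are macrophage and melanocytic barcodes, and the fibroblast shares run from 26.5% to 73.9% on the left and from 8.98% to 27.5% on the right.

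To ask what the knockout label goes with under the skin, fibroblasts labelled KO skin were set against those labelled WT skin. The KO skin fibroblasts had lower levels of 4 matrix metalloproteinases and of 8 activated-fibroblast genes, and higher levels of C3, Cxcl12 and Cxcl14. Among 7210 genes with at least 50 UMIs and a mean of 10 CPM, 521 were at least 2-fold higher in KO skin (7.23%) and 460 at least 2-fold lower (6.38%), on a log2(CPM + 1) scale. With the doubtful barcodes left out the split was 316 higher and 468 lower, and with each barcode weighted equally it was 511 and 692, so the balance of directions turned. Of 61 named genes past 2-fold, 44 stayed past it in the same direction under each alternative tried. Leaving out barcodes with more than 2 of 6 melanocytic markers was not among these alternatives, as too few remained. Without the doubtful barcodes alone, 5 came under 2-fold (Dcn, Lum, Saa3, Thbs1 and Fgf7). The skin matrices share gene list and barcode length, and the direction rests on matrix names that Bap1 did not check.

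Stromelysins and a gelatinase stood out. Mmp10, stromelysin-2, had 15.7 CPM in KO skin (12 UMIs in 5 of 88 fibroblasts), against 1865 CPM in WT skin (2181 UMIs in 53 of 171), a log2 fold of -6.81. Mmp9, gelatinase B, had 15.7 CPM in KO skin (6 barcodes) and 1157 CPM in WT skin (56 barcodes), a log2 fold of -6.12. Mmp13, collagenase-3, had 171 CPM in KO skin, 91.6% of it in 1 barcode, and 2438 CPM in WT skin, a log2 fold of -3.83. Mmp3 had 915 and 5263 CPM in KO skin and WT skin, a log2 fold of -2.52. Thus 53 to 85 of 171 fibroblasts in WT skin held a UMI of each of these enzymes, whereas 5 to 7 of 88 in KO skin held Mmp9, Mmp10 or Mmp13 and 50 of 88 held Mmp3.

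Of the 20 matrix proteases and inhibitors of the list, all were measured, and 4 were past 2-fold lower and 0 higher, beside 6.38% and 7.23% over all genes. Besides Mmp3, Mmp9 and Mmp13 (Mmp10 is not in the list) this was the aggrecanase Adamts4 at -1.31, which was under 2-fold with the deepest 5% of fibroblasts left out. The list's median was -0.21, beside 0.07 over all genes tested, and its abundant members differed by less than 2-fold: the gelatinase Mmp2 had 1340.2 CPM in KO skin and 1409 CPM in WT skin, and the membrane protease Mmp14 915 and 1519.8 CPM. Serpinb2, the plasminogen activator inhibitor PAI-2, stood at 47.0 CPM in KO skin and 966 CPM in WT skin, a log2 fold of -4.33. Neutrophil and macrophage markers were lower in KO skin too: the 10 neutrophil markers summed to 164 CPM in KO skin and 671 CPM in WT skin, and the 10 macrophage markers to 123 and 327 CPM. Their part in these differences was not tested. In the pooled other barcodes of WT skin, Mmp9 stood at 34.3 CPM and Mmp10 at 53.6 CPM. WT skin had 8109 melanocytic barcodes among its 11682 filtered ones, so the pooled level does not give that of neutrophils or macrophages.

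Since Mmp3, Mmp10 and Mmp13 were low together, their promoters were read for the AP-1 motif TGANTCA, the binding site of Fos and Jun proteins through which these proteases are classically induced. The motif reads the same way on both strands and was chosen after the values were seen. Windows of 300 bases, from 250 before the transcription start to 50 after it, come from RefSeq on GRCm38.p6, plus strand, and capitals mark the match, which begins 46 bases before the start in Mmp3, 63 in Mmp10 and 35 in Mmp13. They lie at chr9:7445572-7445871 (Mmp3), chr9:7502092-7502391 (Mmp10) and chr9:7272264-7272563 (Mmp13).
Mmp3: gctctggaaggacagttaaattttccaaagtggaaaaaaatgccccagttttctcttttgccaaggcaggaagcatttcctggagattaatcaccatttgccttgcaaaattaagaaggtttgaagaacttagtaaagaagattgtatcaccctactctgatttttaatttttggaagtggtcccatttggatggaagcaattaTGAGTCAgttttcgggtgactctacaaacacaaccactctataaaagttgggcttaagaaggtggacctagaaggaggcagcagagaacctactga
Mmp10: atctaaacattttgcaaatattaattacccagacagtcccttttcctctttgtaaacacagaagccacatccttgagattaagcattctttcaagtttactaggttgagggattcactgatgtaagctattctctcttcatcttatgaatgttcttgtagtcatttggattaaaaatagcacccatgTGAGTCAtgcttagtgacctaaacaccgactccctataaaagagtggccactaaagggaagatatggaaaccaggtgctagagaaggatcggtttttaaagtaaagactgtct
Mmp13: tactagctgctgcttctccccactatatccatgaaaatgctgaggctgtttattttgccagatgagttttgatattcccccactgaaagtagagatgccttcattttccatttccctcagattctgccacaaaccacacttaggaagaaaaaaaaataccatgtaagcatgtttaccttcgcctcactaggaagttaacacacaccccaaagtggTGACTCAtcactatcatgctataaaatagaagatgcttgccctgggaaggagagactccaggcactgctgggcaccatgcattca
The motif occurs in 2565 of 32851 windows of the table, or 7.81%. Among the 12 genes named as furthest lower, 8 had a window and 3 of these a match (Il11, Mmp10 and Serpinb2), and among the 12 named as furthest higher, 7 had a window and 0 a match. These counts are per gene, while the share over the table is per window. By window, 4 of 10 had a match among the furthest lower and 0 of 8 among the furthest higher. Within the protease list, 2 lower members had a window, both with a match, and the lower Mmp9 and Adamts4 had no window. Of the remaining 16, 8 had a window and 0 a match. Motif and genes were picked from these same values, so the counts are a description, and a part of AP-1 was not tested. A match is a run of letters, not a shown binding site.

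Many activated-fibroblast genes were lower in KO skin. All 16 genes of the activated list were measured, of which 8 were past 2-fold lower and 1 higher, with a median of -1.04 against 0.07 over all genes. Tnc, tenascin-C, had 720.3 CPM in KO skin (661 to 783, 95% Poisson interval) and 5400.2 CPM in WT skin (5268 to 5535), a log2 fold of -2.90. Postn, at the levels given above, had a log2 fold of -2.19. Lrrc15, a membrane protein of TGF-beta-driven tumour fibroblasts, had 58.7 and 606 CPM in KO skin and WT skin and was seen in 20 of 88 and 102 of 171 fibroblasts, a log2 fold of -3.35. Wnt5a, a noncanonical Wnt ligand, had 27.4 CPM in KO skin against 404 CPM in WT skin (-3.83). Col12a1, a collagen that coats fibrils (-2.44), Inhba, the subunit of activin A (-2.29), and Acta2, smooth muscle actin (-1.44), were lower too, though Acta2 was under 2-fold without barcodes that share 16 bases with another matrix. Fap, the one gene higher at 1.09, is a rule gene, rested on 33 and 23 UMIs and came to 0.58 with equal weights.

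The main collagen chains differed by less than 2-fold. Of 9 fibrillar collagens measured, 3 were past 2-fold lower, among them Col5a2 at -1.59, while the main chains Col1a1, Col1a2 and Col3a1 lay at -0.27, 0.39 and 0.40. Of 18 genes for collagen processing and cross-linking, 2 were lower, beside 6.38% over all genes. TGF-beta targets were lower in 5 of 15, with 0 higher and a median of -0.75. Tgfbi, a matrix protein named for its induction by TGF-beta, had 6.52 CPM in 5 barcodes of KO skin and 139 CPM in 56 barcodes of WT skin, a log2 fold of -4.22, with no barcode above 6.13% of the WT skin UMIs. The matricellular protein Thbs1 (-1.28, -0.99 without the doubtful barcodes) and the ligands Tgfb1 (-1.11) and Tgfb2 (-1.5) were lower by less, and all 3 were under 2-fold with the deepest 5% of fibroblasts left out. The activated and TGF-beta lists share Inhba, so it counts in both.

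Some of the genes furthest lower had no UMI in KO skin. Ankrd1, a target of YAP signalling, was at 0 UMIs in KO skin and at 87 UMIs in 17 barcodes of WT skin, at least 19.0-fold lower on a floor of 3 UMIs in the sum. Nt5e, the adenosine-forming ectoenzyme CD73, was at 0 UMIs in KO skin and 76 UMIs in 35 barcodes of WT skin, at least 16.6-fold lower. Likewise Coch was at least 14.6-fold and Nrn1 at least 12.9-fold lower. The cytokines Csf3 and Il11 rested on few barcodes: Csf3 was lower in KO skin by 36-fold (counting interval 6.21 to 1449) and Il11 by 21.0-fold (counting interval 6.96 to 103), with 61.5% of the WT skin UMIs of Il11 in 1 barcode. Tenascin-N (Tnn, -4.20), the smooth muscle actin Actg2 (-4.12) and the BMP antagonist Grem1 (-3.24) were lower too, with 81.8% of the KO skin UMIs of Grem1 in 1 barcode.

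On the higher side stood secreted signals. Cxcl12, the ligand of CXCR4, had 1755 CPM in KO skin (1663 to 1852) and 622 CPM in WT skin (577 to 669), a log2 fold of 1.5. Cxcl14 had 900.4 and 233 CPM in KO skin and WT skin (1.95), and was seen in 51 of 88 and 52 of 171 fibroblasts. Complement C3 had 962 CPM in KO skin against 346 CPM in WT skin (1.47). Of 8 complement genes measured, 2 were higher, C3 among them, and 0 lower. Over all genes, 7.23% were higher and 6.38% lower, which also stands beside the inflammatory and growth factor lists that follow. The inflammatory list was split, with 5 of 14 higher and 3 lower: the eosinophil chemokine Ccl11 (1.78) and the alarmin Il33 (1.86) were higher, and Il6 (-2.74, in 4 and 5 barcodes) was lower. The acute-phase protein Saa3 had 2459 CPM in KO skin and 5523 CPM in WT skin, -1.17, but -0.87 without the doubtful barcodes and -0.01 with equal weights. Among stromal growth factors, 4 of 12 were higher, including Csf1, the macrophage growth factor (1.19), and 2 lower, Grem1 and the epithelial growth factor Fgf7 (-1.21, -0.75 without the doubtful barcodes).

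The genes furthest higher differed in how many barcodes carried them. Bmper, a secreted regulator of BMP signalling, had 141 CPM in 32 of 88 fibroblasts in KO skin and 12 CPM in 10 of 171 in WT skin, a log2 fold of 3.45. Ccn5, a matricellular protein of the CCN family, had 300.1 CPM in 29 barcodes of KO skin and 29.1 CPM in 16 barcodes of WT skin (3.32). Fbln7, a fibulin, had 92.7 and 6.84 CPM in KO skin and WT skin in 22 and 4 barcodes (3.58). These were spread widely, whereas others sat in single barcodes. One KO skin barcode held 71.4% of the UMIs of the cartilage matrix protein Comp, 90.0% of Csrp3, 62.0% of Aggf1, 60.8% of Nppb, 72.0% of Cep152 and 80.7% of Hist1h1a, and Csrp3 and Hist1h1a were under 2-fold without the deepest 5% of fibroblasts. Ptx3, a soluble pattern-recognition protein (3.81), Chrdl1 (4.21) and the lubricin gene Prg4 (3.44) lay between, with 34.6%, 41.9% and 46.7% in the top barcode. Mgp, far more abundant, had 5593 CPM in KO skin and 1905 CPM in WT skin (1.55).

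Further lists held genes past 2-fold in KO skin over WT skin in both directions, beside 7.23% higher and 6.38% lower over all genes. Of 8 small leucine-rich proteoglycans, which bind collagen fibrils, 2 were higher, Fmod (142 CPM in KO skin and 59.9 CPM in WT skin, 1.23, 0.97 with at least 4 rule genes) and Prelp (292 and 118 CPM, 1.30), and 3 lower, among them the rule genes Dcn (-1.0) and Lum (-1.17), both under 2-fold without the doubtful barcodes. Of 5 tendon and fascia genes measured, 3 were higher (Comp, Fmod and Prg4) and 0 lower. Elastin (Eln) had 748 CPM in KO skin, 69.5% of it in 1 barcode, and 195 CPM in WT skin (1.93, 0.52 without barcodes sharing 16 bases with another matrix). Of 13 resting-fibroblast genes, Igfbp6 was higher (1.45, 0.85 with equal weights), Clec3b lower (-1.41) and 11 neither. Position factors were split, with 3 of 12 higher and 2 lower: the homeobox gene Meox2 had 53.5 CPM in KO skin and 12 CPM in WT skin (2.07), and Twist2, a dermal transcription factor, 36.5 and 136 CPM (-1.87). Of the 12 position factors, 5 passed the filter in this comparison alone. Genes of early response and dissociation stress were higher in 6 of 19 and lower in 2, beside 7.23% higher and 6.38% lower over all genes. Hspa1b, an inducible heat shock protein, had 120.1 CPM in KO skin (54.3% in 1 barcode) and 27.4 CPM in WT skin, and was not higher without barcodes sharing 16 bases with another matrix. Fos, an AP-1 subunit, had 146 CPM in KO skin and 60.7 CPM in WT skin (1.25), but 0.15 with equal weights, and it was under 2-fold without the deepest 5% and without barcodes sharing 16 bases as well. The part of handling in the comparison was not tested. Of 10 melanocytic markers, 0 were past 2-fold in either direction, with a sum of 17019 CPM in KO skin and 14595 CPM in WT skin.

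**Figure D3:**
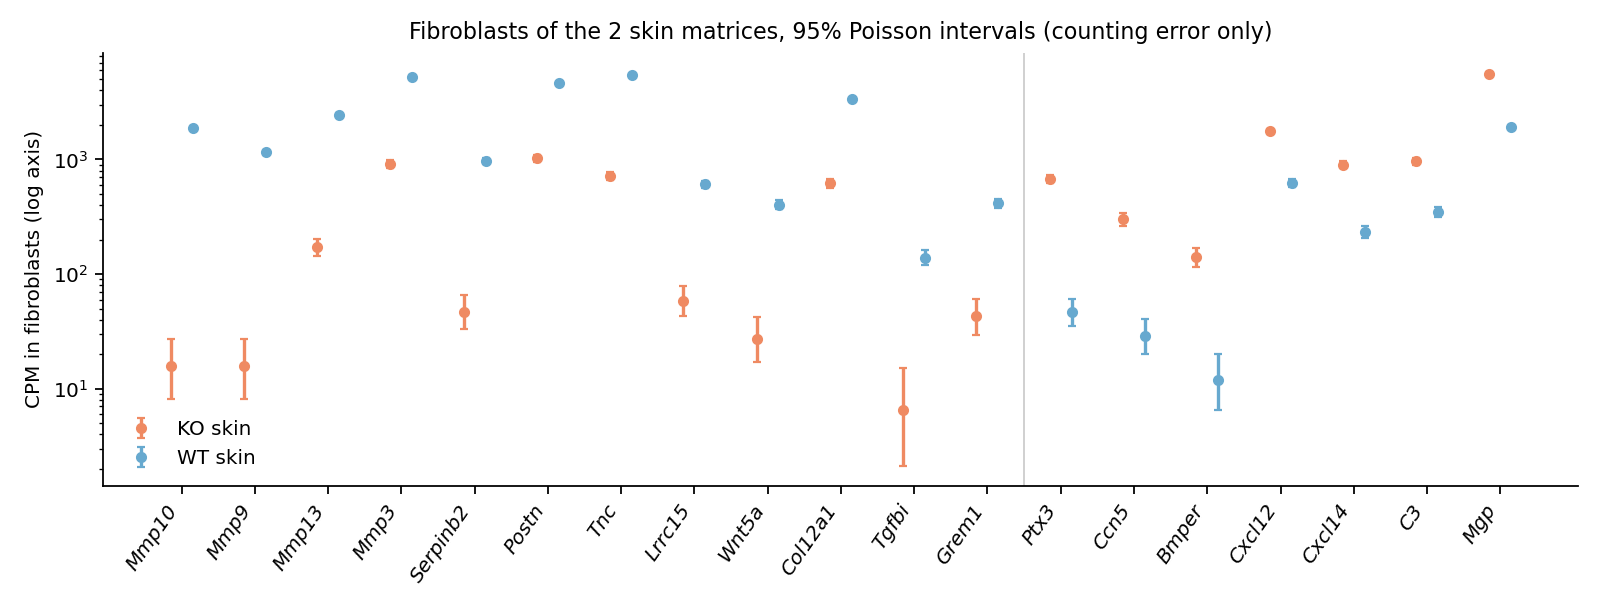
The y axis, a log axis, gives the CPM of 19 named genes in the summed fibroblasts of KO skin (left point of each pair) and WT skin (right point), with 95% Poisson intervals that cover counting error only. Left of the grey line lie genes lower in KO skin, such as Mmp10 at 15.7 against 1865 CPM, and right of it genes higher in KO skin, such as Cxcl12 at 1755 against 622 CPM.

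To ask what goes with the site of growth, fibroblasts labelled KO ocular were set against those labelled KO skin, whose genotype label and gene list are the same. KO ocular fibroblasts had higher levels of several transcription factors of the front of the eye, and lower levels of trunk factors and of lipid and complement genes. Of 7283 genes, 902 were at least 2-fold higher in KO ocular (12.4%) and 638 at least 2-fold lower (8.76%). This comparison shares its KO skin fibroblasts with the preceding one, so a gene that is low in KO skin counts in both. Of 72 named genes past 2-fold, 57 stayed so under each alternative tried. Without the doubtful barcodes alone, 5 came under 2-fold (Npy, Areg, Tfap2a, Col1a1 and Mt2).

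Factors of the eye and the tissue around it included several at high levels in KO ocular. Over all 22 listed and with no filter on low counts, 14 had a higher CPM in KO ocular than in KO skin, 6 a lower one and 2 no UMI in either, with a sum of 1141 CPM in KO ocular and 501 CPM in KO skin. The filter passed 11 of them, 6 higher and 1 lower, but 8 of the 11 did not pass it between the skin matrices. A gene could enter through KO ocular alone, so these counts are a description. Tfap2b, an AP-2 factor of neural crest, had 79 UMIs (72.7 CPM) in 19 of 61 fibroblasts labelled KO ocular and 0 in KO skin, at least 18.6-fold higher, beside 33.2 CPM in WT ocular and 0 in WT skin. In fibroblasts of these 4 matrices, Tfap2b thus had UMIs under the ocular labels and none under the skin labels. Foxc1, a forkhead factor of the anterior segment, stood at 191 CPM in KO ocular, 5.22 CPM in KO skin, 49.0 CPM in WT ocular and 17.1 CPM in WT skin. Foxc2 (2.75) and Eya2 (2.83) were higher in KO ocular as well, and Lmx1b, a LIM homeobox factor, was higher by 16-fold (counting interval 5.24 to 79.5). The lower gene, Tfap2a (-1.19, -0.62 without the doubtful barcodes), is expressed by melanocytes too.

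Several trunk factors were lower in KO ocular. Hoxc6 had 0 UMIs in KO ocular and 57 in 36 of 88 fibroblasts of KO skin, at least 26.9-fold lower, and stood at 0 in WT ocular and 47.9 CPM in WT skin. Of 38 Hox genes listed, it was the only one with enough UMIs for a fold, but 2 of the 38 had any UMI in KO ocular and 27 in KO skin, with a sum of 5.52 CPM in KO ocular and 337 CPM in KO skin. En1, engrailed-1, a factor of dermal lineages, stood at 0.921 CPM in KO ocular, 63.9 CPM in KO skin, 0.831 CPM in WT ocular and 29.1 CPM in WT skin, lower in KO ocular than in KO skin by 69.5-fold (counting interval 11.9 to 2799). Osr1, an odd-skipped factor of connective tissue, stood at 1.84 CPM in KO ocular, 71.8 CPM in KO skin, 1.25 CPM in WT ocular and 48.8 CPM in WT skin, lower in KO ocular than in KO skin by 39.0-fold (counting interval 10.3 to 330.0). Ebf2, an early B-cell factor of the adipogenic lineage, was lower by 70.9-fold (counting interval 12.2 to 2855), with 0.921 CPM in KO ocular and 65.2 CPM in KO skin. Of 18 trunk and skin factors, 14 had a lower CPM in KO ocular and 2 a higher one, with no filter. Of the 7 that passed the filter, 3 were past 2-fold lower (Crabp1, En1 and Pax3) and 0 higher. Crabp1 (-3.91) had most of its UMIs in 1 barcode of each matrix, 78.6% in KO ocular and 75.6% in KO skin, and Pax3 (-1.32, -0.94 without the deepest 5%) is expressed by melanocytes.

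Genes of the cornea, and of the trabecular meshwork and the uvea, were split. They were higher in KO ocular in 6 of 12 and 5 of 11 measured members, beside 12.4% over all genes, and lower in 2 of each. The lower ones were Prelp and Ptgds in the first list and Fmo2 and Myoc in the second. In this comparison alone, 4 of the 12 and 4 of the 11 passed the filter. With no filter, the first list summed to 6585 CPM in KO ocular and 8250 CPM in KO skin, and the second to 16534 and 7565 CPM. Chil1, a chitinase-like secreted protein, had 1404 UMIs in 27 of 61 fibroblasts in KO ocular and 0 in KO skin, at least 330.1-fold higher, with 40.2% of the UMIs in 1 barcode. It stood at 74.2 CPM in the other barcodes of KO ocular. The water channel Aqp1 stood at 854 CPM in KO ocular, 14.4 CPM in KO skin, 284 CPM in WT ocular and 29.9 CPM in WT skin, a log2 fold of 5.80 between KO ocular and KO skin. Edn3, an endothelin that promotes melanocyte growth, was at 90.2 CPM in KO ocular and 0 in KO skin (at least 23.0-fold), and Col8a2, a collagen of the corneal basement membrane, at 492 and 40.5 CPM (3.57). Kitl, the ligand of KIT and a melanocyte growth factor, had 66.3 CPM in KO ocular and 9.13 CPM in KO skin (2.73). The proteoglycans of clear stroma, Lum (2.63) and Dcn (1.77), are rule genes, and Lum counts among the 6 higher members and Dcn among the 5. Aldh3a1, a crystallin of the cornea, at least 18.6-fold higher, rested on 10 barcodes.

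**Figure D4:**
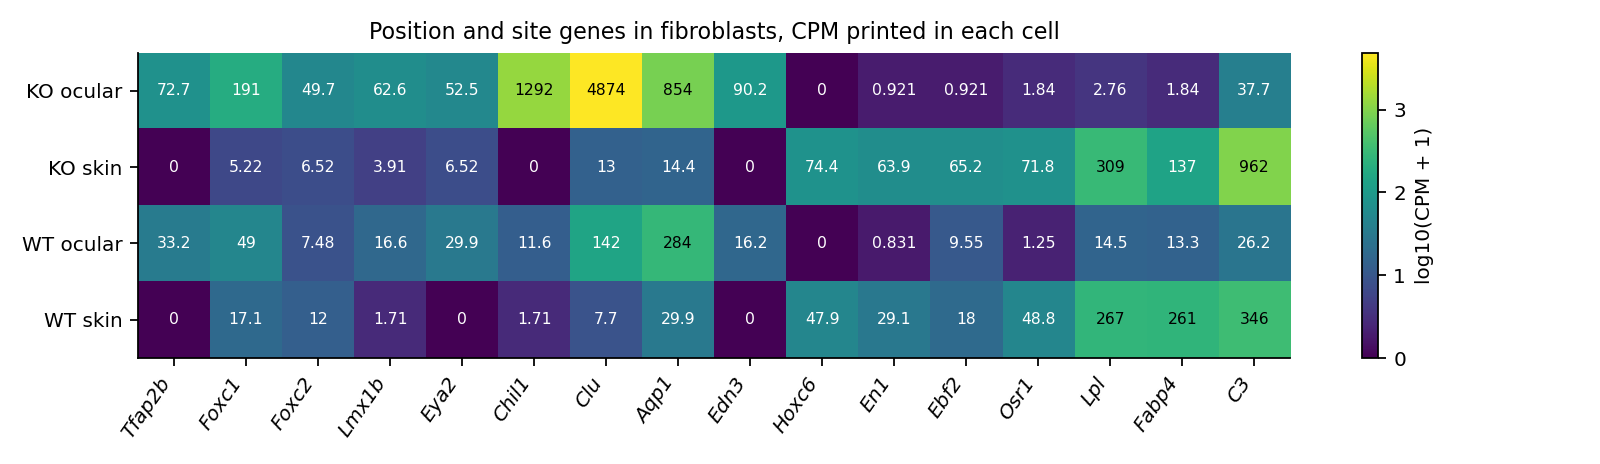
The heat map gives log10(CPM + 1) of 16 genes in fibroblasts, with the CPM printed in each cell and rows for KO ocular, KO skin, WT ocular and WT skin. Tfap2b stands at 0 in both skin rows and Hoxc6 at 0 in both ocular rows, while the WT ocular matrix has another gene list and barcode length.

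Several of the genes furthest higher rested on single barcodes. Clu, the chaperone clusterin, had 4874 CPM in 43 of 61 fibroblasts of KO ocular and 13.0 CPM in 4 of 88 of KO skin, a log2 fold of 8.44, of which 1 barcode gave 53.4%. Without the doubtful barcodes it was 6.82. The secreted protein Bpifb1 had 179 UMIs in 16 fibroblasts of KO ocular and 0 in KO skin, at least 42.1-fold higher, with 27.4% in the top barcode. In Col10a1, Npy and Areg, 1 barcode of KO ocular held 99.7%, 94.5% and 91.0% of the UMIs. Nat8l, Ooep, Mmp12 (a macrophage elastase), Odaph and Il11 had 70.3%, 62.3%, 61.2%, 51.9% and 49.6% in theirs. Areg came to -0.23 without the doubtful barcodes, where Npy had no UMI in either set, and Col10a1 had none without barcodes sharing 16 bases. The values of Col10a1, Npy and Areg thus describe 1 barcode more than the 61 fibroblasts.

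Lipid and complement genes marked the skin side. Lpl, lipoprotein lipase, had 3 UMIs in KO ocular and 237 in 49 of 88 fibroblasts of KO skin, lower by 112-fold (counting interval 37.9 to 547). Fabp4, a fatty acid carrier of adipocytes and endothelium, was lower by 74.4-fold (counting interval 20.1 to 623). Of 4 adipocyte-lineage genes measured, these 2 were lower and 0 higher, while the defining adipocyte genes Adipoq and Plin1 were at 0 in the fibroblasts of both matrices. C3 had 37.7 CPM in 8 fibroblasts of KO ocular and 962 CPM in 54 of KO skin, a log2 fold of -4.64. In all, 4 complement genes of 8 were lower and 0 higher, beside 8.76% and 12.4% over all genes. Among the lower were Cfb, factor B of the alternative pathway (-2.51), and Serping1, the C1 inhibitor (-1.89). The amine oxidase Aoc3 (-4.78) and the adiponectin relative C1qtnf3 (-5.09) belonged to the same end. The receptor Adgrd1 was lower by 58.8-fold (counting interval 15.8 to 494), and so, largely through 1 KO skin barcode each, were Hist1h1a (-4.63, 80.7% in 1 barcode) and Csrp3 (-4.40, 90.0%).

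Collagen I and its processing genes were lower in KO ocular. Col1a1 had 12779.9 and 28189.9 CPM in KO ocular and KO skin (-1.14, -0.93 with equal weights and just under 2-fold without the doubtful barcodes), and Col1a2 7314 and 18181 CPM (-1.31). Of 18 genes for collagen processing, 8 were lower and 0 higher, with a median of -0.73. P4ha1 is among these 8 and counts among the lower hypoxia and glycolysis genes below as well. Serpinh1, the collagen chaperone HSP47, had 1089.9 CPM in KO ocular and 3711 CPM in KO skin (-1.77), P4ha2, a prolyl hydroxylase, 52.5 and 388 CPM (-2.86), and Adamts2, which trims procollagen, 150.0 and 723 CPM (-2.26). Basement membrane and network collagens were mixed, with 4 of 19 higher and 6 lower: Col15a1 was lower (-2.31), and Col4a6 had 65 UMIs in KO ocular against 0 in KO skin. Of the 19, 3 passed the filter in this comparison alone.

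Hypoxia and glycolysis genes were lower in 11 of 16 and higher in 1, with a median of -1.56 against 0.01 over all genes. Adm, the vasodilator adrenomedullin, had 43.3 CPM in KO ocular and 424 CPM in KO skin (-3.26), Ldha, lactate dehydrogenase, 284 and 1044 CPM (-1.88), and Ndrg1 147 and 450.2 CPM (-1.61). Pgk1, a glycolytic kinase, was the exception at 1.38. The other barcodes of the matrices differed the same way for Ldha (334 CPM in KO ocular and 782 CPM in KO skin) and Ndrg1 (62.3 and 238 CPM), and Pgk1 went with them (368 and 140.1 CPM). The same direction thus appeared outside the fibroblasts, and whether its size differed was not tested.

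Activation and inflammation were split between KO ocular and KO skin, where 12.4% of all genes were higher in KO ocular and 8.76% lower. Of 16 activated genes, 5 were higher in KO ocular and 1 lower, including Tnc with 3027 CPM in KO ocular and 720.3 CPM in KO skin (2.07) and Wnt5a (2.65). Inhba (3.17) had 69.1% of its KO ocular UMIs in 1 barcode and turned to -0.79 with the deepest 5% of fibroblasts left out. Resting genes were lower in 5 of 11 and higher in 0, with Igfbp6 at -2.18 and Col15a1 as above, besides the rule genes Dpt (-1.34) and Pi16 (-1.45). With equal weights Igfbp6 came to -0.79 and Pi16 to -0.64, both under 2-fold. The inflammatory list had 3 of 14 higher and 4 lower. Ptgs2, cyclooxygenase-2, had 1179 CPM in 34 of 61 fibroblasts of KO ocular and 104 CPM in 13 of 88 of KO skin (3.49), and Il6 was higher at 5.46. Saa3 (-3.25), Il33 (-3.52), Cxcl12 (-1.52) and Ccl11 (-1.52) were lower in KO ocular. Mmp13 had 2931 CPM in 19 fibroblasts of KO ocular and 171 CPM in 7 of KO skin (4.09). The WT labels did not give the same order for all of these genes, so such differences do not all go with the site. Tnc stood at 1679 CPM in WT ocular and 5400 CPM in WT skin, Mmp13 at 60.2 and 2438 CPM, and Ccl11 at 724 and 53.0 CPM. The order was kept by Ptgs2 (443 CPM in WT ocular and 297 CPM in WT skin), Saa3 (336 and 5523 CPM) and Cxcl12 (238 and 622 CPM). Of 17 stromal growth factors, 8 were higher and 4 lower, among the higher the vessel ligand Angpt1 (2.43) and Gas6 (1.20). As 6 of the 17 passed the filter in this comparison alone, these counts are a description. With no filter, 16 of 25 had a higher CPM in KO ocular and 9 a lower one, with a sum of 2800 CPM in KO ocular and 3309 CPM in KO skin. All 3 erythroid markers measured were also higher in KO ocular, and their part was not tested.

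Of 20 genes of early response and dissociation stress, 3 were higher and 4 lower in KO ocular, beside 12.4% and 8.76% over all genes. The list's median was 0.08, beside 0.01 over all genes. Hspa1b had 19.3 CPM in KO ocular and 120.1 CPM in KO skin (-2.57, -0.39 without barcodes sharing 16 bases with another matrix), while Fosb, an AP-1 subunit, had 74.6 CPM (60.5% in 1 barcode) and 13.0 CPM (2.43). The metallothionein Mt2 was higher in KO ocular, at 6598 CPM against 2218 CPM in KO skin (1.57), as was the metalloproteinase inhibitor Timp1, at 2254 CPM in KO ocular and 857 CPM in KO skin (1.39). Neither held throughout: Mt2 came to 0.99 without the doubtful barcodes and 0.89 with equal weights, and Timp1 to 0.48 without the deepest 5% of fibroblasts and 0.98 with equal weights. Of 18 cell cycle genes, of which 4 passed the filter in this comparison alone, 3 were higher, beside 12.4% over all genes. For the proliferation marker Mki67, which was among these, 1 barcode held 74.2% of the KO ocular UMIs. Its direction turned without the deepest 5% of fibroblasts. Melanocytic markers were lower in 2 of 10 and higher in 0, beside 8.76% lower and 12.4% higher over all genes. Their sum was 12648 CPM in KO ocular and 17019 CPM in KO skin.

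**Figure D5:**
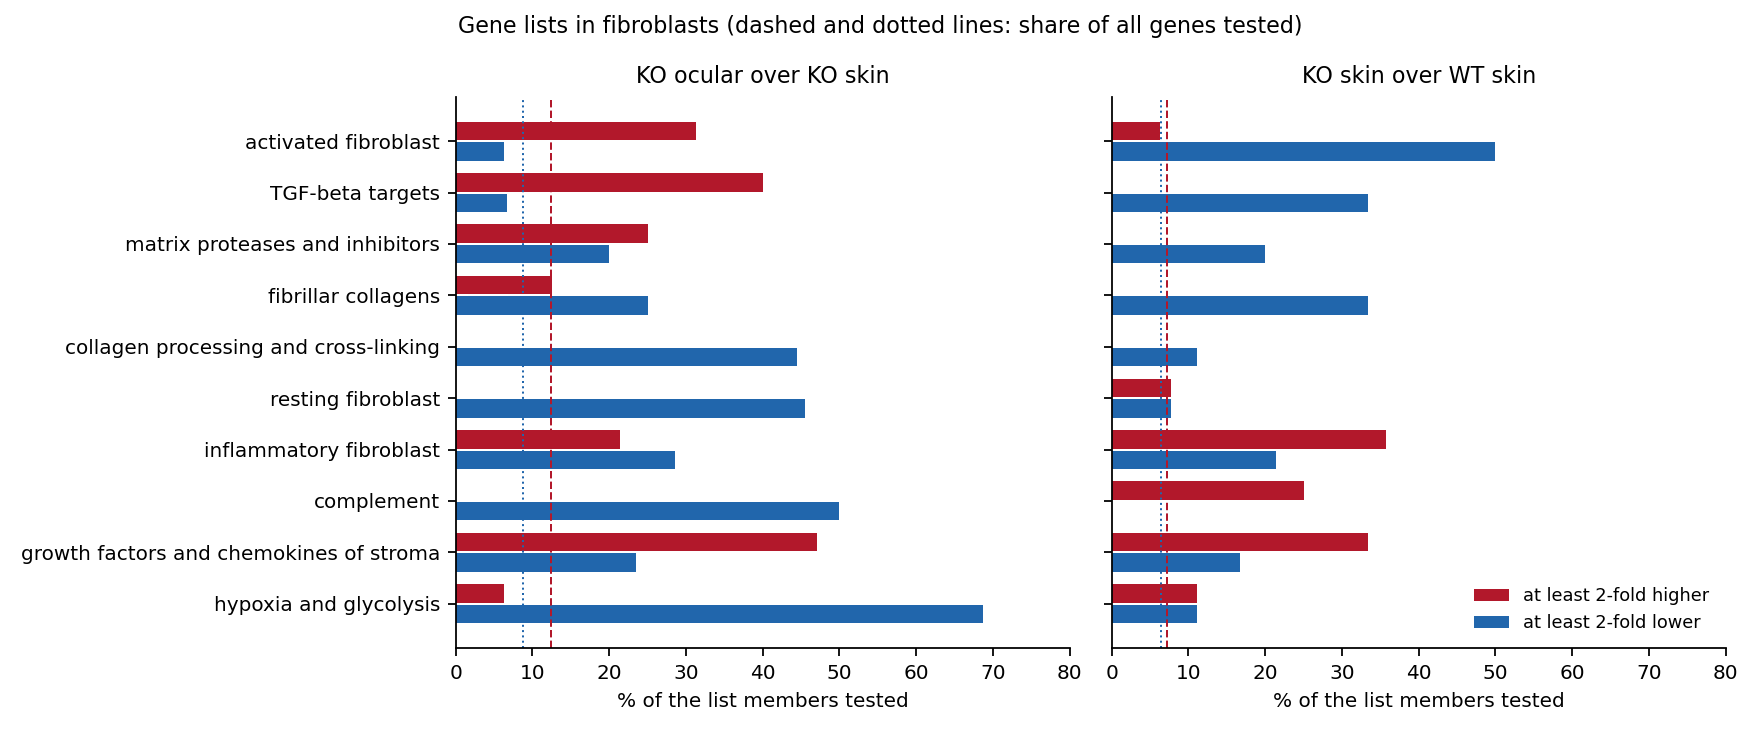
Bars give the percent of measured members of 10 gene lists that were at least 2-fold higher (red) or lower (blue) in fibroblasts, for KO ocular over KO skin (left) and KO skin over WT skin (right). Dashed red and dotted blue lines mark the same shares over all genes tested, 12.4% and 8.76% on the left and 7.23% and 6.38% on the right, and the longest bar is the lower share of hypoxia and glycolysis genes on the left, 11 of 16.

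Within each matrix, where library and assay are shared, fibroblasts with Fap or Postn and neither Pi16 nor Dpt were set against those with Pi16 or Dpt, a contrast chosen after the data were seen, since barcodes with Pi16 or Dpt and neither activated gene numbered only 4, 7, 44 and 11. The sets held 28 and 20 barcodes in KO ocular, 34 and 41 in KO skin, 341 and 105 in WT ocular, and 84 and 78 in WT skin. Their median depths were 6064 and 23849.5 UMIs in KO ocular, 5687 and 4794 in KO skin, 4441 and 2484 in WT ocular, and 5472 and 4844 in WT skin, so depth differed between the sets, not always the same way, and its part was not tested. Of 2271 genes measured in every matrix, 1 was at least 2-fold higher in all 4 (0.044%) and 8 were at least 2-fold lower (0.352%). Cdkn1a, the cell cycle inhibitor p21, was the higher one, at 300.0 against 33.8 CPM in KO ocular, 409 against 95.7 in KO skin, 144 against 68.1 in WT ocular and 306 against 146 in WT skin. Its smallest log2 fold was 1.06, and no gene was past 2-fold higher in all 4 under median-of-ratios scaling.

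The genes lower in all 4 included elastin and a progenitor marker. Besides Pi16 and Dpt, which defined the sets, they were Ly6a, Eln, Igfbp5, Adamts5, Itgbl1 and Col14a1. Eln stayed past 2-fold lower in all 4 under each of the 11 alternatives, and Ly6a under all but equal weights. Under 10% mitochondrial UMIs only these 2 of the 8 did, where Adamts5, Itgbl1, Dpt and Pi16 did not pass the filter in every matrix. Adamts5 and Itgbl1 dropped out under 5 alternatives and Col14a1 under 6. Ly6a, the surface antigen Sca-1 of progenitor-like fibroblasts, stood at 93.1 against 409 CPM in KO ocular, 7.50 against 452 in KO skin, 92.0 against 489.9 in WT ocular and 38.0 against 389 in WT skin. Eln, elastin, gave log2 folds of -2.65, -4.92, -1.88 and -4.76 in that order, and Col14a1, a fibril-associated collagen, -1.05, -3.28, -1.76 and -1.55. As given above, 1 barcode held most of the Eln UMIs in KO skin, and its part in the size of that fold was not tested. Higher in all 4 but under 2-fold in at least 1 were Itga5, the fibronectin receptor chain, Inhba, Vegfa, the vascular growth factor, and the glucose transporter Slc2a1. Vegfa gave 1.13, 2.16, 0.79 and 2.11, and Inhba 5.74, 2.42, 0.84 and 1.63. Of the activated list, 11 genes were measured and 0 were past 2-fold in all 4 matrices in either direction. Postn itself, at -0.81, -0.77, 0.40 and -0.75, was not higher in 3 of the 4 matrices, and barcodes with Pi16 or Dpt may hold Postn as well.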

How the data were processed

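The 4 matrices hold UMI counts per gene and barcode as deposited by the authors; per the file headers they come from Cell Ranger 8.0.0 (7.0.0 for WT ocular), and per the submitters' processing notes the build is GRCm38 (mm10). The labels name both a 10x 3' chemistry and a fixed tissue workflow, and fresh or fixed tissue. Doublets were handled by the exclusion genes and by the alternatives below, since no doublet caller was run.

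Counts were summed over the fibroblasts of a matrix and scaled to one total (CPM). Fold changes are on a log2(CPM + 1) scale, for genes with at least 50 UMIs over both sets and a mean of at least 10 CPM, and a gene is called past 2-fold. A fold printed with a counting interval is instead the plain ratio of CPM, without the added 1, and is larger. For En1 it is 69.5-fold, against 33.8-fold on the log2(CPM + 1) scale. With 1 matrix a group there is no test. Exact 95% Poisson and binomial intervals cover counting error only, and a fold against 0 UMIs uses a floor of 3 counts over the summed set. Named genes are the 12 furthest higher and 12 furthest lower whose CPM exceeded that of other barcodes, up to 4 per gene list, and the rule genes with Postn. The members, the lists and the contrast of Fap or Postn against Pi16 or Dpt were chosen with earlier results of these data known, as were further list members shown in the text and the genes drawn in figures. The calculations were checked on simulated data. Python 3.11.15, numpy 2.4.6, scipy 1.17.1, pandas 2.3.3 and matplotlib 3.10.9 were used. Some members of the lists are not reported here.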

Additional observations from a re-analysis of the deposited data

How the results depend on the processing

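No paired analysis was possible because each group has 1 matrix and no result comes from a test. The number of fibroblasts moved most when barcodes with more than 2 of 6 melanocytic markers were left out, to 15 in KO ocular, 9 in KO skin, 230 in WT ocular and 18 in WT skin, too few in 3 matrices for a comparison of genes. With at least 4 rule genes it was 140.0 in KO skin and 277 in WT skin, and in WT ocular it was 388 under 10% mitochondrial UMIs and 382 with at least 1% rule-gene UMIs.

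The share with Fap or Postn was 24.6%, 40.9%, 17.1% and 61.4% in KO ocular, KO skin, WT ocular and WT skin after thinning to 500 UMIs, and 72.1%, 77.3%, 59.7% and 88.3% without thinning. Thinned to 2000 UMIs it was 69.2% in KO skin, 44.5% in WT ocular and 85.4% in WT skin. It was 42.9% in KO skin and 62.0% in WT skin with at least 4 rule genes, 35.0% in WT ocular and 82.5% in WT skin with at least 6, 41.3% in WT ocular and 82.2% in WT skin at 1% rule-gene UMIs, 37.3% in WT ocular under the melanocytic filter, and 51.8% in KO ocular without the deepest 5%. The share with Pi16 or Dpt was 32.8%, 46.6%, 15.6% and 45.6% without thinning. At 500 UMIs it was 17.0% in KO skin, 5.65% in WT ocular and 17.5% in WT skin, and at 2000 UMIs 43.1% in KO skin. It was 14.3% in KO skin, 6.77% in WT ocular and 17.8% in WT skin with at least 4 rule genes, 35.0% in WT skin with at least 6, and in WT ocular 4.13% under 10% mitochondrial UMIs, 12.7% under the melanocytic filter and 13.0% at 1% rule-gene UMIs.

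Between KO skin and WT skin, the count of higher genes was 316 at 1% rule-gene UMIs, 334 without the deepest 5%, 340.0 without barcodes sharing 16 bases and 347 with a pseudocount of 10 CPM, and the count of lower genes was 692 with equal weights. Without the filter on low counts it was 1834 higher and 1685 lower there, and 2058 higher and 2276 lower between KO ocular and KO skin. For Fap or Postn only over Pi16 or Dpt, genes higher in all 4 numbered 4 at 1% rule-gene UMIs, 3 without barcodes sharing 16 bases and with equal weights, 0 with median-of-ratios scaling or the pseudocount of 10 CPM, and 25 without the filter. Genes lower in all 4 numbered 5 with at least 6 rule genes, at 1% rule-gene UMIs, without the deepest 5% and with equal weights, 2 under 10% mitochondrial UMIs and 45 without the filter. Directions turned in KO skin over WT skin for Hspa1b (-0.29 without barcodes sharing 16 bases), and in KO ocular over KO skin for Mki67 (-0.65 without the deepest 5%, -1.45 without barcodes sharing 16 bases, -0.38 with equal weights), Areg (-0.23, 1% rule-gene UMIs) and Inhba (-0.79, without the deepest 5%). The median of mesothelial markers in KO skin over WT skin turned to 0.41 without the filter and 0.26 with equal weights, and that of tendon and fascia genes in KO ocular over KO skin to 0.54 and 0.42. The cause was not tested.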
